A study of Drosophila melanogaster with 135 samples.

Results

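The genes described here are those measured in heads of 30d-old male *Drosophila melanogaster* that carry a CRISPR deletion in *E(z)*, beside heads of wild type (WT) males of the same age. *E(z)* encodes the catalytic subunit of Polycomb Repressive Complex 2 (PRC2). Genes were included where the mean normalized count over both groups was at least 10, which kept 9052 of the 17023 genes in the table. *CG6283*, with 15.5 in *E(z)* heads and 4.52 in WT heads, lay just inside this minimum and *Rpt3R*, with a mean of 9.99, just outside. Normalized counts are read counts on a gene divided by a scaling factor for each library.

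Each group had 3 libraries of polyadenylated RNA from pools of heads. *E(z)* flies carried the allele labelled *E(z)239* in heterozygous form, backcrossed into line 5905, and 5905 itself, a *w1118* line, was the WT. The mutant is therefore 1 deletion allele in flies that keep 1 intact copy. Flies of both groups were kept at 25 °C in a light–dark cycle, and the time of day of collection is not given in the sources used here. Both groups belong to a series of 135 samples. The same WT libraries were also the control of *esc*, *Pcl* and *Su(z)12* mutant heads. The comparison asks which transcripts differ when the PRC2 methyltransferase is reduced in the adult head.

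PRC2 places methyl groups on lysine 27 of histone H3 (H3K27me3), a mark found on silenced developmental genes. *E(z)* is its enzyme, *esc* and *Su(z)12* are core subunits, *Caf1* (p55) binds histones, and *Pcl*, *Jarid2* and *jing* are accessory subunits. In flies, Hox genes and other regulators of body pattern are the best known targets. The head holds brain, compound eyes, antennae, muscle and fat body, so each value is a mixture over these tissues, and fewer cells of a type cannot be told apart from less RNA per cell.

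The sequences that define the allele are shown first, because every difference below is a difference between flies with and without this deletion. It was made with a pair of guides, here in the sense of the gene with the neighbouring PAM (the bases Cas9 requires) in capitals. Guide 1 matched the minus strand of chromosome 3L at chr3L:10637534-10637552 and guide 2 the same strand at chr3L:10637300-10637319 (dm6), each at 1 place in the genome.
Guide 1: gatctgtactgcgagtcgaAGG
Guide 2: gggcgacgaggtcctcgataAGG
The sequence between the stated ends of the deletion is chr3L:10637300-10637538, 239 bp in coding exon 3, inside 1 coding exon of all 3 annotated transcripts. Its length leaves a remainder of 2 when divided by 3, so the reading frame is not kept.
Deleted bases: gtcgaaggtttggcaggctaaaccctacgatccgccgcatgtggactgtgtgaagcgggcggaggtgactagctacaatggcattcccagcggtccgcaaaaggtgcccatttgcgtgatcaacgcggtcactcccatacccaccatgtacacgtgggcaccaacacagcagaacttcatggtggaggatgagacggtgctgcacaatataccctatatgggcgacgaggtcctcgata

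Reads were counted over whole genes, so a count on *E(z)* does not separate the intact from the deleted copy. *E(z)* had 162.5, 144.2 and 154.1 normalized counts in *E(z)* heads, against 170.6, 192.2 and 177.4 in WT heads. All 3 mutant libraries were below all 3 WT libraries, with a mean of 154 ± 9.16 against 180 ± 11.1 (SD, n = 3 each). The log2 ratio of the means was -0.23, and the adjusted p was 0.252 in limma, a linear model fitted across all genes. The count therefore gives no independent check of the genotype labels beyond this difference.

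The deposited table gives group means only. Reads per library were recovered from the means for 7936 of the 9052 genes, and these genes were tested with limma on log2(normalized count + 1) with Benjamini-Hochberg adjustment. The other 1116 genes, mostly those with means over 1000, have group means and no test. For them the interval given is a 95% interval for counting error, which leaves out the spread between flies. The recovered libraries are in no known order, and they are separate samples by their labels, with nothing given on separate cultures, so that p-values measure the spread between these samples, which may be technical.

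At a change of at least 1.5-fold in the group means, 311 of 9052 genes (3.44%) differed. Of these, 179 genes (1.98%) were higher and 132 (1.46%) were lower in *E(z)* heads. At least 2-fold, 49 genes were higher and 26 lower. limma called 349 of 7936 genes (4.4%) at an adjusted p below 0.05, of which 197 (2.48%) rose and 152 (1.92%) fell. An unadjusted p below 0.05 was reached by 1319 genes. Of the 1.5-fold genes that could be tested, 85 of 166 higher and 45 of 125 lower ones passed limma, and 219 limma calls changed by less than 1.5-fold. Leaving out WT library 1 reduced the limma calls to 216 and leaving out *E(z)* library 2 reduced them to 230.

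Total reads on genes, estimated from the size factors and the summed means, were 4104089 to 4500091 in *E(z)* libraries and 4695264 to 5429541 in WT libraries. Between libraries of a group, Pearson's r of log2 values was 0.980 to 0.985, and between groups it was 0.973 to 0.978. The coefficient of variation between libraries had a median of 19.6% in *E(z)* and 18.02% in WT heads for genes with a mean of 10 to 50, and of 5.34% and 4.92% for means of 300 to 1000. The other groups of 30d WT heads in the series show how far controls differ. Between the WT heads used here and these groups, 2.98% and 3.30% of such genes were past 1.5-fold. These tables were scaled separately, so each log2 ratio between WT groups given here was first centred on the median gene.

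The other PRC2 genes lay close to WT. *esc* had 43.9, 38.8 and 45.7 normalized counts in *E(z)* heads and 66.8, 55.9 and 65.7 in WT heads. Its libraries did not overlap, and its log2 ratio of -0.55 missed the threshold (adjusted p = 0.0722, limma). *Su(z)12* averaged 243 in *E(z)* heads and 245 in WT heads, *Pcl* averaged 173 and 168, *Caf1* 149 and 146, and *Jarid2* 619 and 603. Of the list of 9 PRC2 genes with the demethylase *Utx*, 0 passed 1.5-fold and 0 passed limma, with 5 above 0 on the log2 scale and a median of 0.03, against 0.00 over all genes. Of 12 members of PRC1 and PhoRC, the complexes that read or recruit the mark, 0 passed either rule.

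Classical Polycomb targets showed no rise by either rule. Of 8 Hox genes, 5 had a mean of at least 10, and 0 passed either rule. *pb*, which acts in the mouthparts, had a log2 ratio of -0.29, *Dfd* -0.20, *lab* -0.18, *Antp* -0.02 and *Scr* 0.08. Of 51 developmental transcription factors on the Polycomb target list, 37 had a mean of at least 10, and 0 passed 1.5-fold. Their median log2 ratio was -0.09, with 12 of 37 above 0.

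Genes at H3K27me3 peaks form a list chosen by the study from chromatin of young muscle, another tissue and age, and the list used here does not hold all of its genes. Of 920, 334 had a mean of at least 10, of which 4 were at least 1.5-fold higher and 11 lower (4.49% in all, against 3.44% of all genes), with a median log2 ratio of -0.06. limma called 2 higher and 11 lower of 309 tested, against 4.4% of all genes in either direction. With both directions together, both shares were near those of all genes. Split by direction, all genes stood at 1.98% higher and 1.46% lower by fold, and at 2.48% and 1.92% by limma. Among the peak genes falls outnumbered rises by both rules. Of the 334, 119 were above 0, against 4526 of 9052 over all genes. The next genes were chosen after their values were seen. *retn*, a transcription factor of neurons, fell to 285, 257 and 317 in *E(z)* heads, against 372, 449 and 416 in WT heads (log2 ratio -0.53, adjusted p = 0.00208, limma). *salr*, a transcription factor of the eye, fell to 155, 152 and 158 in *E(z)* heads, against 212, 194 and 208 in WT heads (-0.40, adjusted p = 0.0174). *gl*, which photoreceptors require, fell to 378, 354 and 410 in *E(z)* heads, against 496, 469 and 481 in WT heads (-0.34, adjusted p = 0.00995). In each of these, every mutant library was under every WT library. Without 1 library, the largest adjusted p was 0.104 for *salr* and 0.0658 for *gl*.

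Of the 48 lists, the 2 highest medians were those of the small heat shock proteins and the chaperones, which fold or hold other proteins. Of 12 measured members of the chaperone list, 6 were at least 1.5-fold higher in *E(z)* heads and 0 lower, with a median log2 ratio of 0.53. Of 6 small heat shock proteins, 3 were higher and 0 lower, with a median of 0.56, against a median of 0.00 and 1.98% higher over all genes. limma could test 11 of these 18 genes, and 6 of the 11 rose and 0 fell.

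*Hsp83*, the fly Hsp90, had the highest mean of them in *E(z)* heads, and *Hsc70-4* had it in WT heads. The *Hsp83* mean was 20336 normalized counts in *E(z)* heads and 5601 in WT heads, a 3.63-fold difference (log2 ratio 1.86, counting interval 1.84 to 1.89). *Hsc70-4*, the constitutive Hsp70 that acts with it, averaged 18612 in *E(z)* heads and 11986 in WT heads (log2 ratio 0.63). *DnaJ-1*, an Hsp40 that delivers clients to Hsp70, averaged 2014 in *E(z)* heads and 1131 in WT heads (0.83). These 3 genes are too abundant for their reads to be recovered, so they have no test.

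*Hsp68*, an inducible Hsp70, rose to 395, 396 and 489 normalized counts in *E(z)* heads, against 182, 170 and 183 in WT heads. The lowest mutant library was above 2-fold of the highest WT library (log2 ratio 1.26, adjusted p = 5.64e-07, limma). *Hsp70Bb*, an inducible Hsp70, rose to 57.1, 59.9 and 59.0 in *E(z)* heads, against 8.12, 9.81 and 5.22 in WT heads (2.93, adjusted p = 3.85e-06). *Hsp70Bc* rose to 64.8, 102 and 67.4 in *E(z)* heads, against 6.32, 29.4 and 4.17 in WT heads (2.55, adjusted p = 0.000716). *Hsp70Bb* and *Hsp70Bc* are near-identical copies, so reads may be split between them, and their values are uncertain one by one.

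Among the small heat shock proteins, which hold unfolded proteins, *Hsp26* rose to 198, 159 and 248 in *E(z)* heads, against 82.1, 55.9 and 30.3 in WT heads (1.84, adjusted p = 0.000136, limma). *Hsp23* rose to 142, 136 and 134 in *E(z)* heads, against 63.2, 53.0 and 56.4 in WT heads (1.255, adjusted p = 9.98e-06). Neither gene had overlapping libraries. *Hsp27* had 39.5, 67.6 and 74.6 in *E(z)* heads, against 33.4, 36.3 and 31.3 in WT heads (0.85, adjusted p = 0.0495), and without *E(z)* library 2 its adjusted p was 0.192. The remaining 3 small members lay between -0.20 and 0.28. *Hsf*, the transcription factor of the heat shock response, averaged 375 in *E(z)* heads and 387 in WT heads, with overlapping libraries (-0.05). It was looked up after the chaperone values were seen.

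The subunits of CCT, the ring chaperone that folds actin and tubulin, were also looked up after values were seen, as were *Hop* and *Cdc37*. All 8 CCT subunits rose in limma, and in 8 of 8 the libraries did not overlap, which was so for 21.3% of all genes tested. Their log2 ratios were 0.54 to 0.79 with a median of 0.69. *Cctgamma* rose to 560, 580 and 569 normalized counts in *E(z)* heads, against 306, 338 and 344 in WT heads. *T-cp1* rose to 544, 562 and 591 in *E(z)* heads, against 325, 345 and 320 in WT heads. The spread within each group was small against the gap between groups. *Hop*, which links Hsp70 to Hsp90, averaged 1019 in *E(z)* heads and 524 in WT heads (0.96, no test). *Cdc37*, the co-chaperone that brings kinases to Hsp90, rose to 446, 403 and 447 in *E(z)* heads, against 314, 329 and 305 in WT heads (0.45, limma).

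**Figure D1:**
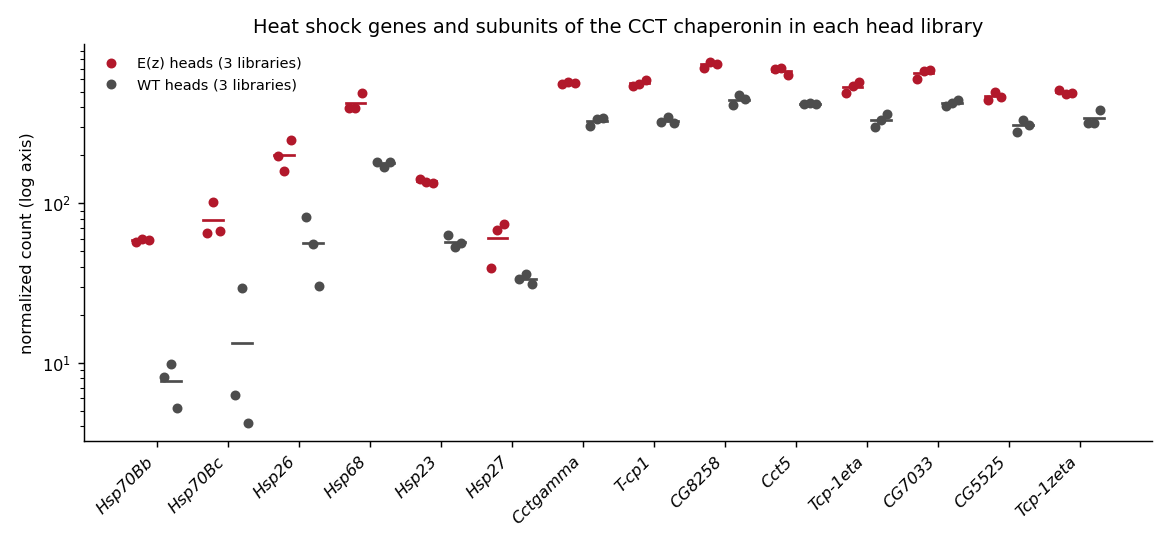
Normalized counts on a log axis for heat shock and chaperone genes whose reads were recovered, with 1 point for each of 3 libraries of *E(z)* heads (left of each pair) and of WT heads (right), and a bar at each mean. *Hsp68* sits between 395 and 489 in *E(z)* heads and between 170 and 183 in WT heads.

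Heat shock factor binds repeats of GAA and its reverse TTC in promoters. The 250 bases before the annotated start of each gene (Ensembl annotation of the dm6 assembly) were searched on both strands for pairs of units, GAANNTTC or TTCNNGAA, and for triplets, in which a further unit follows the pair after another 2 bases and alternates with it, so that a triplet holds 2 overlapping pairs. A pair was present before 9 of the 18 listed chaperone genes, and before 12.95% of 8833 genes. A triplet was present before 3 of the 18 and before 0.374% of the 8833. Over all genes at least 1.5-fold higher in *E(z)* heads, 15.9% held a pair, and over those lower 15.5%. A match is a match of letters only.

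Promoters of genes with large differences are shown with the matched letters in capitals, to set the letters beside the values above. *Hsp68* (minus strand, chr3R:24057311-24057560) had 6 pairs and 3 triplets, counting overlapping matches.
Hsp68: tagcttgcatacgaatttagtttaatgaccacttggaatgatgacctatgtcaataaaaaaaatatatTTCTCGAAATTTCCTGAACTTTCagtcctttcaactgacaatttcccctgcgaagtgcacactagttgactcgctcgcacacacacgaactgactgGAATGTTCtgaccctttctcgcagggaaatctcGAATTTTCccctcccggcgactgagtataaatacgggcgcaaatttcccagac
*Hsp70Bb* (plus strand, chr3R:12505543-12505792) had 3 pairs and 1 triplet, and the stretch before *Hsp70Bc* was letter for letter the same.
Hsp70Bb: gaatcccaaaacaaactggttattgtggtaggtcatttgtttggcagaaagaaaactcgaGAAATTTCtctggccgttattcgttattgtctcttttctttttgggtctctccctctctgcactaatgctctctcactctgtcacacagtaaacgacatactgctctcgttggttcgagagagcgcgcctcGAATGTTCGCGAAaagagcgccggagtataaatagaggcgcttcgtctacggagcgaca
*Hsp26* (minus strand, chr3L:9377428-9377677) had 2 pairs and no triplet.
Hsp26: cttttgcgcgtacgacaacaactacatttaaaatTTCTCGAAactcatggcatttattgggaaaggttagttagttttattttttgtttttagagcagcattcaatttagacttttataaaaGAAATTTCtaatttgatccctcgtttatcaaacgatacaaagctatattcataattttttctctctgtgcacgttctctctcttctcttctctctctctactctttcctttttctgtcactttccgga
The window before *Hsp83*, with the largest absolute gain in counts, held neither, and nor did those before *Hsp27* and *DnaJ-1*. The windows before *Hsc70-3*, *Hsp67Bc* and *l(2)efl*, listed genes that did not pass 1.5-fold, held 1 pair each.

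The same WT libraries stand under the other single mutants, so the chaperone values of each are given side by side. *Hsp83* averaged 20336 in *E(z)*, 15307 in *esc*, 17654 in *Pcl* and 19298 in *Su(z)12* heads, against 5601 in the shared WT heads. All 4 mutant means were thus far above this WT mean. The median log2 ratio of the CCT subunits was 0.69 in *E(z)*, 0.27 in *esc*, 0.64 in *Pcl* and 0.66 in *Su(z)12* heads. In *esc E(z)* double mutant heads, with WT libraries of their own, it was 0.05 and *Hsp83* had a log2 ratio of 0.09. For *Hsp83*, the shared WT heads stood at a log2 ratio of 0.70 to one other WT group and -0.05 to the other. It stood at 0.67 and 0.50 for *Hsp68*, 0.90 and 1.17 for *Hsp26*, and 1.10 and 1.10 for *Hsp70Bb*, so this WT lay above both other WT groups for these genes. Whether the WT libraries have a part in the chaperone values was not tested.

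Clock genes also differed from WT. In flies, *Clk* and *cyc* activate *per* and *tim*, whose proteins return to repress them each day, and *vri* and *Pdp1* form a second loop. Of 11 clock genes, 2 were at least 1.5-fold higher in *E(z)* heads and 1 lower, against 1.98% and 1.46% of all genes. *tim* averaged 2187 in *E(z)* heads and 976 in WT heads (log2 ratio 1.16, counting interval 1.10 to 1.23). Its means were 1353 in *esc*, 2159 in *Pcl* and 2194 in *Su(z)12* heads, over the same WT. *per* had 370, 686 and 459 normalized counts in *E(z)* heads, against 366, 335 and 218 in WT heads (0.72, adjusted p = 0.0352, limma). The lowest *E(z)* library barely passed the highest WT library, and without WT library 3 the adjusted p was 0.182.

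*vri* averaged 985 in *E(z)* heads and 719 in WT heads (0.45), and *Pdp1* averaged 2708 and 2151 (0.33). In *esc*, *Pcl* and *Su(z)12* heads over the same WT, the log2 ratio was 0.17, 0.86 and 0.91 for *per*. It was 0.00, 0.72 and 0.53 for *vri* in the same order. *Clk* had 362, 289 and 302 in *E(z)* heads, against 379, 402 and 403 in WT heads (-0.31, adjusted p = 0.0456, limma, and 0.191 without *E(z)* library 2). *to* (takeout), an output gene of the clock linked to feeding, fell to 134, 113 and 122 in *E(z)* heads, against 208, 215 and 218 in WT heads. Its libraries were well apart (-0.80, adjusted p = 0.000125). In *esc*, *Pcl* and *Su(z)12* heads, the log2 ratio was 0.39, -1.29 and -0.50 for *to*, and -0.16, -0.48 and -0.58 for *Clk*. *cry*, the blue light receptor, had a log2 ratio of -0.18, *cyc* 0.17 and *cwo* 0.04.

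Outside the clock list, *phr* and *Hr38* were named by the rules for large changes and lists. *phr*, a light-driven DNA repair enzyme, rose to 171, 180 and 124 in *E(z)* heads, against 56.9, 56.9 and 59.5 in WT heads (1.45, adjusted p = 9.35e-06, limma). *Hr38*, a nuclear receptor induced by neuronal activity, rose to 124, 170 and 108 in *E(z)* heads, against 62.3, 88.3 and 68.9 in WT heads (0.87, adjusted p = 0.00475). *Crg-1*, a forkhead gene under clock control, was chosen after its values were seen. It had 19.8, 32.2 and 27.7 in *E(z)* heads, against 2.71, 0 and 0 in WT heads (adjusted p = 0.000244, limma).

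For some of these genes this WT stood apart from both other WT groups. Relative to the other WT groups, this WT had log2 ratios of -1.34 and -1.02 for *tim*, -1.13 and -1.02 for *per*, -1.14 and -0.58 for *vri*, and -1.35 and -1.22 for *phr*. For *Crg-1*, with few counts in any WT heads, it was -2.05 and -2.55 (WT means of 0.902 here, and 5.92 and 6.36 in the other groups). For *Clk* it was 0.55 and 0.70, in the other direction. Smaller ratios were found for *Pdp1* (-0.27 and -0.17), *cry* (0.13 and -0.07), *cyc* (0.14 and -0.15), *cwo* (-0.31 and 0.10) and *Hr38* (-0.12 and 0.43). For *to* it was -0.43 and -0.50, so that *E(z)* heads lay further from the other WT groups than from this one. Over all genes, 24 of the 179 higher in *E(z)* heads (13.4%) had this WT at least 1.5-fold below both other WT groups, against 0.552% of all genes. Of the 132 lower, 20 (15.2%) had it at least 1.5-fold above both, against 0.740% of all genes. This WT mean is part of the ratio that picked the genes, so these shares describe them only. The effect of the genotype and of this set of WT libraries cannot be told apart for such genes.

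**Figure D2:**
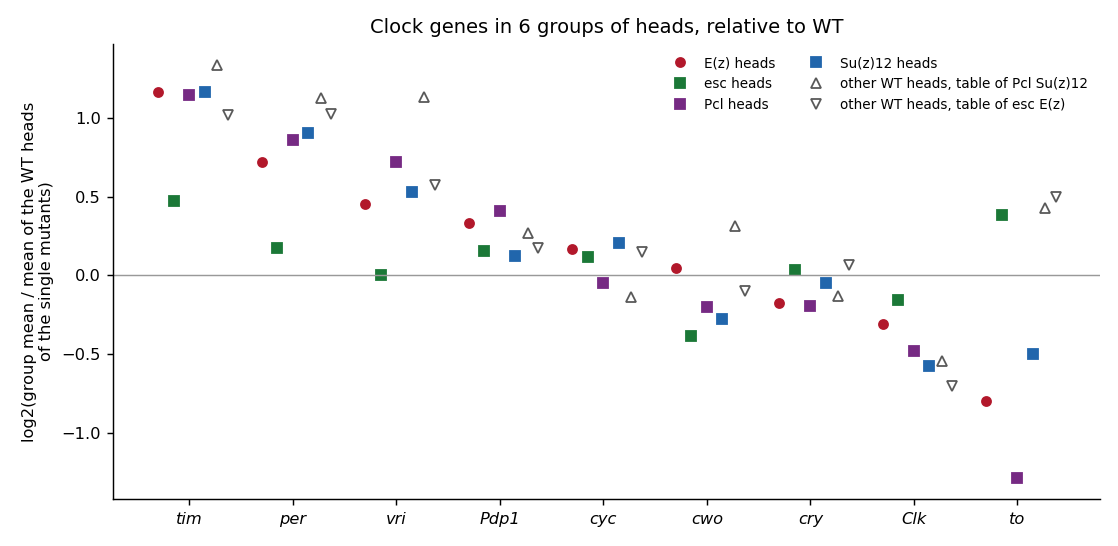
The log2 ratio of each group mean to the mean of the WT heads of the single mutants, for clock genes, in *E(z)*, *esc*, *Pcl* and *Su(z)12* heads (filled symbols) and in both other groups of WT heads (open triangles, from tables scaled separately and centred on the median gene). For *tim*, *E(z)* heads lie at 1.16 and the other WT groups at 1.34 and 1.02. For the same gene, *esc* heads lie at 0.47, *Pcl* heads at 1.15 and *Su(z)12* heads at 1.17.

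Turandot genes, secreted proteins of the fat body induced by stress, had the lowest median of the 48 lists. Of 4 measured, 3 were at least 1.5-fold lower, against 1.46% of all genes, with a median log2 ratio of -1.40. *TotM* fell to 35.1, 43.3 and 37.3 in *E(z)* heads, against 206, 214 and 92.9 in WT heads (-2.15, adjusted p = 4.50e-05, limma). *TotC* fell to 317, 124 and 202 in *E(z)* heads, against 514, 952 and 812 in WT heads (-1.82, adjusted p = 0.00013). Both had separate ranges in the groups despite wide spread. *TotA* averaged 1750 in *E(z)* heads and 3463 in WT heads (-0.98, no test), and *TotX* 235 and 247 (-0.07, adjusted p = 0.841). The Turandot median was -1.50 in *esc*, -0.93 in *Pcl* and 0.74 in *Su(z)12* heads over the same WT, and -1.15 in *E(z)* muscle and -1.71 in *esc E(z)* heads over their own. This WT stood at 0.93 and 1.26 to the other WT groups for *TotM*, and at -0.24 and -0.51 for *TotC*.

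Cytochrome P450 enzymes, which oxidize toxins and lipids, changed in both directions. Of 67 measured, 4 were at least 1.5-fold higher and 8 lower, against 1.98% and 1.46% of all genes, and limma called 5 higher and 5 lower of 58, against 2.48% and 1.92%. *Cyp6a17*, linked to temperature preference, fell to 25.2, 21.1 and 16.8 in *E(z)* heads, against 143, 86.3 and 91.8 in WT heads (-2.34, adjusted p = 3.68e-06). *Cyp4p2* fell to 273, 267 and 332 in *E(z)* heads, against 638, 771 and 658 in WT heads (-1.24, adjusted p = 5.64e-07). Both fell in every library. *Cyp6w1* averaged 1361 in *E(z)* heads and 3021 in WT heads (-1.15, no test). This WT stood at 0.70 and 1.31 to the other WT groups for *Cyp4p2*, at 0.91 and 0.96 for *Cyp6w1* and at -0.29 and -0.54 for *Cyp6a17*. *Cyp12c1*, chosen after its values were seen, rose to 191, 204 and 207 in *E(z)* heads, against 106, 98.1 and 123 in WT heads (0.88, adjusted p = 0.00011).

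*Gnmt* and *Nmdmc*, enzymes of one-carbon metabolism, were among the genes with the largest falls by group means. *Gnmt*, which uses up S-adenosylmethionine, the methyl donor of histone methylation, averaged 405 in *E(z)* heads and 1328 in WT heads (-1.71, counting interval -1.81 to -1.62, no test). Its means were 371 in *esc*, 1219 in *Pcl* and 406 in *Su(z)12* heads, and its log2 ratio in *E(z)* muscle was -1.56. This WT stood at 0.74 and 0.95 to the other WT groups for *Gnmt*, and at -0.18 and 0.09 for *Nmdmc*, and the part of these libraries in the falls was not tested. *Nmdmc*, the mitochondrial folate enzyme, fell to 147, 141 and 178 in *E(z)* heads, against 283, 270 and 388 in WT heads (-1.01, adjusted p = 0.000128, limma). Its ranges did not overlap.

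*CG17386*, with no role known here, had the largest fall among genes with a mean of at least 50. It fell to 85.6, 74.3 and 63.8 in *E(z)* heads, against 366, 326 and 589 in WT heads (-2.52, adjusted p = 3.96e-07, limma). This WT had a log2 ratio of 2.32 and 1.27 to the other WT groups for *CG17386*. *CG10924*, a PEPCK paralogue that acts in glucose synthesis, fell to 206, 186 and 86.7 in *E(z)* heads, against 238, 318 and 387 in WT heads (-0.98, adjusted p = 0.0129, and 0.0972 without WT library 3). *Cpr76Bc*, a cuticle protein, fell to 62.6, 68.8 and 78.2 in *E(z)* heads, against 141, 130 and 141 in WT heads (-0.98, adjusted p = 0.000135). *atk*, a leucine-rich repeat protein of sensory organs, fell to 91.1, 46.6 and 50.6 in *E(z)* heads, against 121, 176 and 106 in WT heads (-1.10, adjusted p = 0.00493).

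Among other genes with large rises, *CG4962* rose to 303, 244 and 196 in *E(z)* heads, against 62.3, 70.6 and 76.2 in WT heads (1.83, adjusted p = 9.39e-07, limma). *CG5290* rose to 175, 185 and 195 in *E(z)* heads, against 71.3, 81.4 and 62.6 in WT heads (1.37, adjusted p = 3.19e-06). In both, the ranges were far apart. *Ubpy*, a deubiquitinase of the endosome, averaged 1034 in *E(z)* heads and 437.7 in WT heads (1.24), and *CG5830* averaged 1274 and 584 (1.12), both with no test. *CG5830* averaged 612 in *esc*, 581 in *Pcl* and 505 in *Su(z)12* heads, all near WT. *CG5290* averaged 149, 184 and 189 in these heads in the same order, and *Ubpy* 691, 1138 and 903, all above WT. *CG4962* averaged 131, 169 and 56.0, so that *esc* and *Pcl* heads were above WT and *Su(z)12* heads below. To the other WT groups, this WT stood at -0.98 and -0.67 for *Ubpy* and at -0.66 and -0.34 for *CG4962*. For *CG5290* it stood at 0.54 and 0.37, and for *CG5830* at 0.01 and 0.09. The part of these WT libraries in the rises was not tested.

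Some large ratios came with wide spread between libraries. *Drs*, the antifungal peptide drosomycin, had 986, 98.7 and 171 in *E(z)* heads, against 83.02, 332 and 133 in WT heads, with overlapping ranges (1.20, adjusted p = 0.582, limma). *CG17005* had 298, 338 and 40.9 in *E(z)* heads, against 106, 46.1 and 71.0 in WT heads (1.60, adjusted p = 0.253). Of 15 measured antimicrobial peptides, 1 was past 1.5-fold higher and 2 lower, and limma called 0 of 10.

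Receptors and carriers for smell included several that were higher. Ionotropic receptors, ion channels of the antenna tuned to acids and amines, had 4 of 14 members at least 1.5-fold higher, against 1.98% of all genes, and 0 lower, with a median of 0.20. *Ir76a* rose to 77.9, 89.8 and 86.7 in *E(z)* heads, against 42.4, 40.2 and 30.3 in WT heads (1.17, adjusted p = 0.000352, limma). *Ir75b* rose to 85.6, 76.5 and 66.2 in *E(z)* heads, against 45.1, 34.3 and 20.9 in WT heads (1.19, adjusted p = 0.00334). *Ir75a*, the adjacent gene of the same family, with which reads may be shared, rose to 101, 115 and 101 in *E(z)* heads, against 71.3, 58.8 and 44.9 in WT heads (0.86, adjusted p = 0.00334). The 3 receptors had separate ranges. This WT lay below both other WT groups for all 3, at -0.91 and -0.72 for *Ir75b*, -0.65 and -0.37 for *Ir75a* and -0.36 and -0.25 for *Ir76a*, and its part in the rises was not tested. Odorant receptors had 2 of 12 higher by fold, 0 by limma, and a median of -0.12.

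Odorant-binding proteins had 3 of 24 members at least 1.5-fold higher, against 1.98% of all genes, and 0 lower, with a median of 0.06. *Obp57a*, of the taste organs, rose to 194, 204 and 181 in *E(z)* heads, against 85.7, 118 and 121 in WT heads (0.84, adjusted p = 0.000573, limma). This WT stood at -0.60 and -0.33 to the other WT groups for *Obp57a*, and at a median of -0.23 and -0.36 for the list. Among neuropeptides, *Capa*, which acts on water balance, rose to 414, 566 and 330 in *E(z)* heads, against 219, 246 and 233 in WT heads (0.91, adjusted p = 0.000687). *Nplp3* averaged 1022 in *E(z)* heads and 1786 in WT heads (-0.81, no test). *Ilp3*, an insulin-like peptide of the brain, had 8.78, 21.1 and 21.7 in *E(z)* heads, against 7.22, 7.85 and 4.17 in WT heads (1.42, adjusted p = 0.117). To the other WT groups, this WT stood at -0.91 and -0.66 for *Ilp3*, 0.04 and -0.15 for *Capa* and 0.26 and -0.28 for *Nplp3*. Its part in these differences was not tested.

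Genes of sugar metabolism differed little. Of 15 measured glycolysis genes, 0 passed 1.5-fold and 13 were above 0, with a median log2 ratio of 0.16 against 0.00 over all genes. *Pgi*, which makes fructose 6-phosphate, averaged 4278 in *E(z)* heads and 3248 in WT heads (0.40, counting interval 0.36 to 0.44). *Tpi*, triose phosphate isomerase, averaged 1996 in *E(z)* heads and 1583 in WT heads (0.33, counting interval 0.28 to 0.39). *Pfk*, the committed step, had a log2 ratio of -0.02 and *ImpL3*, lactate dehydrogenase, -0.28. Reads were recovered for 3 of the 15, and limma called 0 of these, so most of the group has no test against the spread between libraries. The glycolysis median was 0.10 in *esc*, 0.11 in *Pcl* and 0.29 in *Su(z)12* heads, all over the same WT. The WT heads had a median of -0.01 and -0.17 for the list relative to the other WT groups.

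The 8 trehalose and glycogen genes were all above 0, with a median of 0.22. *CG9485*, the glycogen debranching enzyme, chosen after its values were seen, rose to 580, 603 and 617 in *E(z)* heads, against 424, 425 and 429 in WT heads (0.49, adjusted p = 0.00013, limma). All 81 cytoplasmic ribosomal protein genes were above 0, between 0.07 and 0.40, with a median of 0.19 and 0 past 1.5-fold. The same list stood at 0.08 and -0.21 between the WT heads and the other WT groups, and at 0.03 in *E(z)* muscle. Genes of oxidative phosphorylation had a median of 0.01 over 105 members, and the proteasome 0.00 over 31. Of 15 mitochondrial genome transcripts, 1 was above 0, with a median of -0.20.

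Phototransduction genes, which turn light into a signal in the photoreceptors, had 0 of 32 measured members past 1.5-fold. Of the 32, 24 were below 0 with a median of -0.08, and this WT had a median of 0.08 and 0.09 for the list relative to the other WT groups. *ninaE*, the main rhodopsin, averaged 133920 in *E(z)* heads and 138200 in WT heads. limma called 2 of 9 tested, both lower. *laza*, a lipid phosphatase of the cascade, fell to 542, 474 and 444 in *E(z)* heads, against 640, 614 and 581 in WT heads (-0.33, adjusted p = 0.0148, and 0.0992 without 1 library). *ninaB*, which makes the chromophore, fell to 606, 660 and 586 in *E(z)* heads, against 809, 697 and 745 in WT heads (-0.28, adjusted p = 0.0237, and 0.167 without 1 library).

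Markers of the cell types in the head moved little. Neuronal markers had a median log2 ratio of -0.08 over 23 genes and glial markers -0.10 over 10, and 0 of either passed 1.5-fold. limma called 0 of 7 tested neuronal markers and 2 of 7 glial ones, both lower, against 1.92% of all genes. Of the 10 glial markers, 3 were above 0. The glial factor *repo* fell to 312, 368 and 425 in *E(z)* heads, against 476, 478 and 462 in WT heads (-0.36, adjusted p = 0.0278, limma, and 0.132 without 1 library). The other glial call was *alrm* (-0.25, adjusted p = 0.0205, limma). The median was 0.12 over 14 fat body markers, 0.08 over 21 muscle markers and 0.24 over 9 hemocyte markers, of which 8 were above 0. Of 2 measured yolk markers, *Yp3* rose (0.68, adjusted p = 0.0334, limma) and *Yp2* was lower without a call (-0.60, adjusted p = 0.390). None of the 20 male reproductive markers had a mean of 10. Of 22 gut markers 3 had one, and *Amy-d* rose, with a log2 ratio of 0.78 (adjusted p = 0.00517). Summed gut markers were 422 to 599 in *E(z)* libraries and 287 to 545 in WT libraries. The part of other cell types in the results was not tested.

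**Figure D3:**
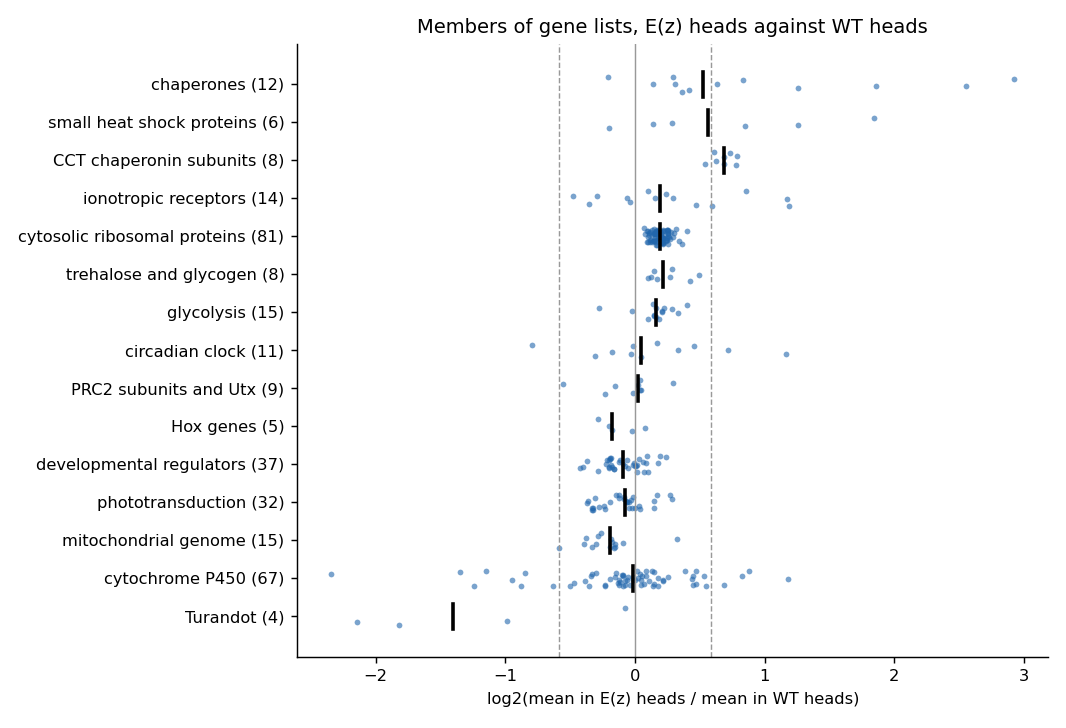
The log2 ratio of the mean in *E(z)* heads to that in WT heads for each member of several gene lists with a mean of at least 10 (points), with the median of each list as a bar. Dashed lines mark 1.5-fold, chaperones reach furthest to the right, up to 2.93, and Turandot genes have the lowest median, -1.40.

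*E(z)* muscle, with its own 3 libraries and 3 WT muscle libraries, gives a separate set of samples for the same allele. Like the WT heads, this WT muscle is labelled as the control of the single mutants. No other WT muscle was set beside it, so the part of these WT libraries in calls shared by both tissues was not tested. limma called 239 of 7972 genes in muscle (3%). Among 7118 genes tested in both tissues, 50 rose in both and 25 fell in both, with 0 in opposite directions. The 50 are 29.8% of the 168 head rises and 69.4% of the 72 muscle rises, and the 25 are 20.3% of the 123 head falls and 19.4% of the 129 muscle falls. By fold alone, 175 of 213 genes called in heads had the same sign in muscle (82.2%), against 56.4% of 8395 genes. Genes of the same libraries are not independent, so no interval is given.

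*Cyp6a17* had log2 ratios of -2.34 in heads and -2.42 in muscle, and *Ir76a* 1.17 and 2.03. *phr* stood at 1.45 in heads and 1.998 in muscle, *Nmdmc* at -1.01 and -1.07, and *CG5830* at 1.12 and 0.96. *Hsp83* stood at 1.86 and 0.96. Genes chosen after their values were seen include *Bmcp*, a mitochondrial carrier, at 0.89 and 0.76, and *CG9485* at 0.49 and 0.53, which limma called in both tissues. For *phr*, the WT heads lay at -1.35 and -1.22 to the other WT groups of heads, and the log2 ratio in *esc E(z)* heads was -0.02. The difference between the tissues was tested in 7118 genes, and 44 (0.618%) passed. *CG17386* fell by 2.39 more in heads than in muscle on the log2 scale, where its ratio was -0.08, and *to* by 0.74 more (adjusted p = 1.27e-05 and 0.00337, limma). Of the CCT subunits, *CG7033*, *CG8258*, *Cct5* and *T-cp1* differed between tissues, by 0.48 to 0.73, with the larger rise in heads.

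**Figure D4:**
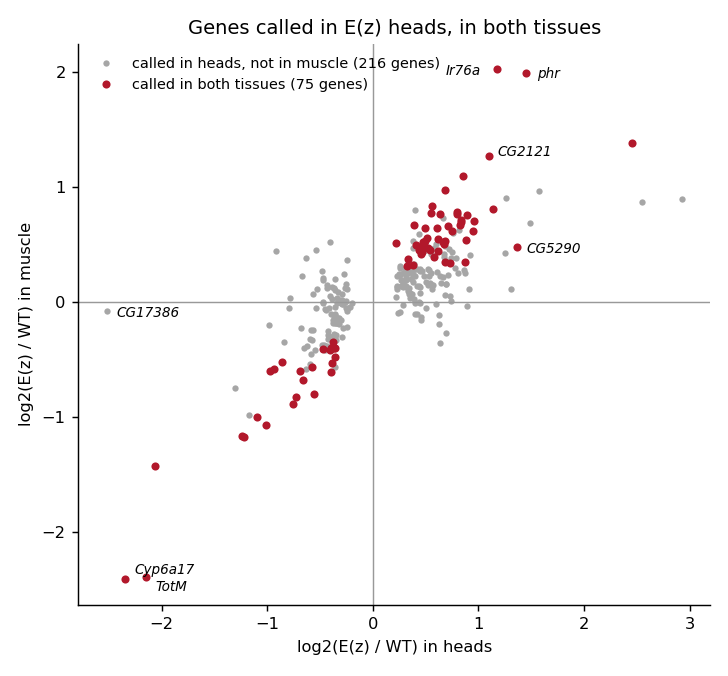
The log2 ratio of *E(z)* to WT in heads (x axis) and in muscle (y axis) for genes that limma called in heads. The 75 genes called in both tissues all lie where both ratios have the same sign.

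*esc E(z)* double mutant heads, which carry an *E(z)* mutation and have their own WT libraries, are a further set. limma called 446 of 7861 genes there (5.67%). Of 7670 genes tested in both, 62 rose and 24 fell in both and 5 went in opposite directions. The 62 are 34.3% of the 181 rises in *E(z)* heads and 25.8% of the 240 in the double mutant, and the 24 are 17.5% of 137 falls and 12.1% of 199. *Cyp6a17* had a log2 ratio of -3.54 in *esc E(z)* heads (adjusted p = 1.69e-07, limma).

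On the common scale of 15 libraries, *E(z)* heads differed from *esc* heads in 179 of 7820 genes (2.29%), from *Pcl* heads in 91 (1.16%) and from *Su(z)12* heads in 157 (2.01%). Only 4 genes differed from WT and from all 3 other mutants in 1 direction, and all but *Cyp6a17* were chosen for this after their values were seen. *Cyp6a17* averaged 21.1 in *E(z)* heads, 100.14 in *esc*, 235 in *Pcl* and 100.01 in *Su(z)12* heads, against 107 in WT heads. *CG7509* averaged 74.8 in *E(z)* heads, 107 in *esc*, 119 in *Pcl* and 108 in *Su(z)12* heads, against 116 in WT heads. *CG8550*, a peptidase of the neprilysin family, averaged 140 in *E(z)* heads, 45.6 in *esc*, 51.7 in *Pcl* and 88.7 in *Su(z)12* heads, against 86.6 in WT heads. *rl*, the fly ERK kinase, averaged 339 in *E(z)* heads, 267 in *esc*, 233 in *Pcl* and 266 in *Su(z)12* heads, against 268 in WT heads. Its adjusted p was 0.0457 against *esc* and 0.0463 against *Su(z)12* heads, and against WT it was 0.147 without 1 library (limma). *rl* lies at the base of 2R, in a window described below where 4 of 5 tested genes rose, *rl* among them.

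Position was checked because a backcrossed allele keeps DNA of its original chromosome around it. Within 1 Mb of *E(z)*, 6 of 117 genes (5.13%) were past 1.5-fold, and within 5 Mb 28 of 685 (4.09%), against 4.37% on all of 3L and 3.44% overall. The nearest genes with a mean of at least 10 lay near 0, with *CG14153* at 0.05, *CG8009* at -0.17, *hay* at 0.19 and *CG32066* at -0.01. *CG8003*, 23.3 kb away and chosen after its values were seen, rose to 84.5, 66.5 and 71.0 in *E(z)* heads, against 48.7, 38.2 and 39.7 in WT heads (0.81, adjusted p = 0.00782, limma, and 0.0588 without 1 library). This WT stood at -0.42 and -0.59 to the other WT groups for *CG8003*.

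The genome was then cut into windows of 500 kb, after the values were seen. In 2 of 244 windows with at least 5 tested genes, over 30% rose in limma, the tip of X (8 of 21) and the base of 2R (4 of 5). At the tip of X, from *RhoGAP1A* to *y* (chrX:127449-361245), 12 of 13 genes were above 0 and 10 were at least 1.5-fold higher, with a median log2 ratio of 0.78. *CG13375* rose to 445, 406 and 460 in *E(z)* heads, against 240.0, 233 and 252 in WT heads (0.85, adjusted p = 3.68e-06). *cin*, which makes the molybdenum cofactor, rose to 310, 307 and 343 in *E(z)* heads, against 181, 190 and 182 in WT heads (0.80, adjusted p = 2.18e-05). *G9a*, an H3K9 methyltransferase, rose to 509, 485 and 506 in *E(z)* heads, against 378, 297 and 288 in WT heads (0.64, adjusted p = 0.000292). *y* (yellow), the pigment gene, had 27.4, 17.7 and 19.3 in *E(z)* heads, against 2.71, 2.94 and 0 in WT heads (adjusted p = 0.00193). It averaged 1.44 in *esc*, 17.1 in *Pcl* and 24.1 in *Su(z)12* heads. This WT stood at -0.88 and -2.01 to the other WT groups for *y* (WT means of 1.88 here, and 5.49 and 9.12 there). The part of these WT libraries in the rise of *y* was not tested.

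No such run followed *y*. In the genes after *y* up to 700 kb from the end of the chromosome, 1 of 27 was at least 1.5-fold higher and 2 were lower, with a median of 0.01. The stretch was ended at *y* after the values were seen, so the contrast between its sides is a description only. *CG32816*, which spans *y*, is in neither set (log2 ratio 0.29, adjusted p = 0.669, limma). The *RhoGAP1A* to *y* median was 0.77 in *E(z)* muscle and 0.46 in *esc E(z)* heads, each against its own WT. Over the WT heads shared with *E(z)*, it was 0.01 in *esc*, 0.48 in *Pcl* and 0.86 in *Su(z)12* heads. Between the WT heads and the other WT groups it was -0.03 and 0.04.

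**Figure D5:**
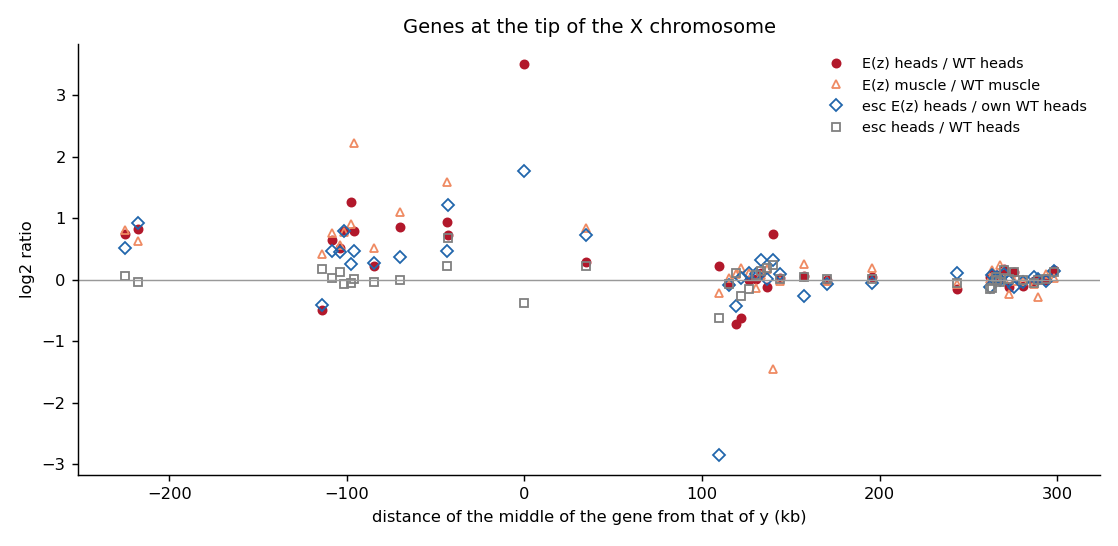
The log2 ratio of each gene at the tip of X against the distance of its middle from that of *y* in kb, in *E(z)* heads, *E(z)* muscle and *esc E(z)* heads over their own WT, and in *esc* heads over the shared WT (*y* has no muscle point, being listed at 0 in WT muscle). Left of *y* the *E(z)* points lie mostly above 0, with a median of 0.78 in heads, and right of it they lie around 0, with a median of 0.01. The split at *y* was chosen after the values were seen, and *CG32816*, which spans *y*, is in neither median.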

How the data were processed

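Heads of 30d *E(z)* and WT males were compared, 3 libraries each. The authors aligned single-end reads to dm6 with STAR, counted reads on genes with HTSeq without strand, so that overlapping genes on opposite strands cannot be told apart, and compared groups with DESeq. The deposited tables hold, as a signal, the mean of counts divided by size factors, for each group and over both, with the authors' fold change, its log2, p-value and adjusted p-value, which were not used. Other tables served only the comparisons with other heads and muscle. Titles of the muscle controls disagree with their descriptions, and the titles were used.

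Because group means are given to 10 digits, whole reads per library were recovered. A gene was kept where only 1 set of 3 whole numbers gave its mean, or where only 1 such set had its highest library within 2-fold of its lowest, which favours even sets, and only for means under 1000. Both groups were recovered for 7936 genes, 6306 of them by a single set. Which recovered library is which replicate is unknown.

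Main calls used a ratio of group means of at least 1.5-fold and a minimum mean of 10, as fixed in the plan, which assumed no test. Added after the data were seen, limma 3.58.1 (R 4.3.3, trended) tested log2(normalized count + 1), 3 libraries against 3, with Benjamini-Hochberg adjustment at 0.05. In limma the log2 differences understate changes of low genes. Log2 ratios printed are of group means. On data simulated from the WT means and the size factors, limma found 46.3% of genes changed by 1.5-fold, 89.6% by 2-fold and 100% by 3-fold. It made 8 false calls among the unchanged genes, with 7857 genes simulated in all, changed ones included. The simulated spread between libraries was a chosen setting, not fitted to these libraries, so these shares do not measure the power reached here. Ratios and sequences were handled in Python 3.11.15 (pandas 2.3.3). Alternatives were other folds, minimum means, pseudocounts and scalings, and leaving out each library.

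Named genes were PRC2 subunits, the 15 largest rises and falls with a mean of at least 50, up to 6 called members of each of 48 lists, glycolysis, phototransduction and clock genes, cell type markers and the 5 genes nearest to *E(z)* on each side. Members and lists were chosen with earlier results of these data known. Promoters came from the RefSeq dm6 genome and the Ensembl annotation. Intervals cover counting error only.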

Additional observations from a re-analysis of the deposited data

Results flagged for a closer look

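For 7 described genes the effect of the *E(z)* allele differed between heads and muscle by a test of the difference itself in limma, a linear model over the libraries of both tissues. *CG17386* had a difference of -2.39 (heads minus muscle, log2, SE 0.239, adjusted p = 1.27e-05), with a log2 ratio of -0.08 in muscle itself. *to*, the output gene of the clock, had a difference of -0.74 (SE 0.117, adjusted p = 0.00337). *CG5290* had a difference of 0.89 (SE 0.171, adjusted p = 0.0170). Of the CCT chaperonin subunits, *CG7033* had a difference of 0.73 (SE 0.118, adjusted p = 0.00398), *CG8258* of 0.68 (SE 0.0999, adjusted p = 0.00170), *Cct5* of 0.62 (SE 0.112, adjusted p = 0.0115) and *T-cp1* of 0.48 (SE 0.104, adjusted p = 0.0339).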

How the results depend on the processing

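The count of 311 genes past 1.5-fold became 75 at 2-fold, 1180 at a ratio of 5 to 4, 126 with a minimum mean of 50, 1687 with no minimum and 169 with a pseudocount of 10. The cytochrome P450 count of 12 became 5 with a minimum mean of 50, 5 at 2-fold and 7 with a pseudocount of 10, and the 15 H3K27me3 peak genes became 4, 2 and 2 in the same settings. The share of head genes with the same sign in muscle, 82.2%, became 91.8% with a minimum mean of 50 and 88.6% at 2-fold. The shares between WT groups became 1.495% and 0.529% for the first other group and 1.56% and 0.667% for the second. Within 1 Mb of *E(z)* 2 genes, and within 5 Mb 12 genes, were past 2-fold. The 349 limma calls became 223 of 6306 genes with a single set of whole reads, and 216 to 377 with 1 library left out. Without 1 library, 319 to 388 recovered genes were past 1.5-fold, against 291 with all 6. Scaling to equal sums moved the median ratio by 0.01 on the log2 scale. Of all 349 limma calls, 192 lost the threshold without some 1 library and 157 kept it whichever library was left out. Of 56 named genes past the limma threshold, 14 lost it without some 1 library. No direction was reversed under these settings. No paired analysis was possible because the recovered libraries carry no replicate number. Genes with means over 1000 have no test at any setting.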

Other observations

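Juvenile hormone and ecdysone genes had 1 of 17 members at least 1.5-fold higher, *Hr38*, and a median log2 ratio of -0.11. Nuclear-encoded mitochondrial ribosomal proteins lay at a median of 0.03 over 72 genes and the V-ATPase at -0.05 over 21. Nicotinic receptors, the main excitatory receptors of the fly brain, lay at -0.14 over 9 genes, of which 1 was above 0, and the WT heads had a median of 0.32 and 0.40 for this list relative to the other WT groups. In *E(z)* muscle the proteasome list lay at -0.60, against 0.00 in *E(z)* heads, with 31 genes in each, and 11 of the 31 were among the 44 genes whose effect differed between heads and muscle in limma. At the base of 2R, *CR40190*, chosen after its values were seen, rose to 64.8, 32.2 and 50.6 normalized counts in *E(z)* heads, against 9.02, 14.7 and 5.22 in WT heads (log2 ratio 2.35, adjusted p = 0.000437, limma). This WT stood at -1.66 and -1.62 to the other WT groups for *CR40190*, and its part in the rise was not tested. The log2 ratio in *esc E(z)* heads over their own WT was 0.52.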
